A study of Homo sapiens with 6 samples.

Results

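The enzymes described here are 10 genes of serine synthesis and folate one-carbon metabolism, taken by symbol from a table of 20388 gene symbols. They fall into 3 serine synthesis enzymes (PHGDH, PSAT1, PSPH), 2 cytosolic folate enzymes (SHMT1, MTHFD1) and 5 mitochondrial folate enzymes (SHMT2, MTHFD2, MTHFD1L, MTHFD2L, ALDH1L2). RNA was sequenced from MHCC-97H, a human liver cancer cell line in long-standing use (tissue liver and genotype WT in the labels), after 24 h with 2 µM GK921 (3 libraries) or with the solvent DMSO (3 libraries). GK921 inhibits transglutaminase 2, the product of TGM2, and the study compared RNA levels with and without it. Only 1 cell line was used. Nothing says whether the 3 libraries of each group were separate cultures, so the p-values measure a spread between libraries that may be technical. In bulk RNA, fewer cells expressing a gene and less RNA per cell cannot be told apart.

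Cells make serine from the glycolytic intermediate 3-phosphoglycerate. Serine hydroxymethyltransferase then moves a carbon from serine to tetrahydrofolate and leaves glycine. The same folate steps run in the cytosol and in mitochondria with separate enzymes: mitochondria mostly oxidise the carbon to formate, which leaves for the cytosol and there feeds purine, thymidylate and methionine synthesis. Several genes of this pathway are textbook targets of ATF4, the transcription factor of the amino acid stress response. Tumour cells often depend on them.

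The members did not move as a block. All 3 serine synthesis genes were higher after GK921, by 1.41-fold to 3.39-fold. Both cytosolic folate genes were lower, SHMT1 by 3.88-fold and MTHFD1 by 1.93-fold. Of the 4 mitochondrial genes that could be tested, 3 were higher, by 1.94-fold to 6.11-fold, and MTHFD2L was not called. MTHFD2 was listed at or near 0 in every library and was not tested. Folds are ratios of mean FPKM, and calls are limma tests on log2(FPKM + 1) with a Benjamini-Hochberg adjusted p under 0.05 over all tested genes. Of 9 members tested, 6 were called higher and 2 lower. Among all 11573 tested genes 46.8% were called higher and 29.2% lower (75.9% in either direction), so a call on its own says little about a member here, and the sizes matter more. The groups' values did not overlap for 8 of the 9 members, against 78% of all tested genes. The median log2 change was 0.95 over the 9 members and 0.16 over all tested genes. With libraries rescaled by median ratios the counts over all genes were 4221 higher and 4374 lower, against 5411 and 3378 as deposited, and the members' counts were still 6 and 2.

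The deposited values are FPKM, read fragments scaled by transcript length and by library total, so levels of different genes can be set side by side. Values after ± are SDs over 3 libraries for levels and ratios, and standard errors for log2 changes. Pearson's r over genes was 0.993 to 0.995 between libraries that shared a treatment and 0.914 between treatments. Relative depth, read from the steps between low values, was 0.767 to 0.862 in GK921 libraries and 0.871 to 1 in DMSO libraries. TGM2 averaged 42.6 ± 0.345 FPKM after GK921 and 42.1 ± 0.0265 FPKM in DMSO (SD, n = 3 each), and its log2 change of 0.017 (limma adjusted p = 0.71) turned to -0.15 with median-ratio scaling (limma adjusted p = 0.00642). The inhibitor acts on the protein, so this RNA does not check the labels. Of the liver lineage markers, ALB, APOA1, APOA2, TTR and SERPINA1, which define hepatocytes, were all under 0.5 FPKM in every library. HNF4A (8.57 and 9.11 FPKM after GK921 and in DMSO), KRT8 and KRT18 were present. Of 5 endothelial markers, CDH5 was listed at 0 in every library, PECAM1 averaged 3.94 FPKM after GK921 and 3.83 FPKM in DMSO, and KDR was called higher, at 2.69 FPKM after GK921 and 1.62 FPKM in DMSO (limma adjusted p = 0.00582, but 0.0973 with quantile normalization). The summed endothelial list was 6.42 to 8.07 FPKM after GK921 and 5.42 to 5.95 FPKM in DMSO. PTPRC and CD3E of leukocytes reached at most 0.68 FPKM, and COL1A1 of fibroblasts at most 0.02 FPKM. CD68, a macrophage marker that other cells also express, averaged 99.7 FPKM after GK921 and 109 FPKM in DMSO. The fibroblast list held 2 genes above the limit of 1 FPKM, LUM and DCN, and both fell, to a summed list level of 22.6 to 28.6 FPKM after GK921, against 48.5 to 52.4 FPKM in DMSO. Below that limit, and not tested, PDGFRB went the other way, at 0.31 to 0.35 FPKM after GK921 and 0 to 0.03 FPKM in DMSO. COL3A1 was listed at 0 after GK921 and at 0.1 to 0.13 FPKM in DMSO, and COL1A2 reached at most 0.05 FPKM. The part of the endothelial and fibroblast markers in the results was not tested.

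Promoter sequences are shown for the 5 called members that have an entry in the RefSeq table (GRCh38.p14), since they include genes that rose and genes that fell. The table holds 7 of the 10 members. PSPH, SHMT2 and ALDH1L2 have no entry. Each line gives the 250 bases before the start, 5′ to 3′ on the gene's own strand. The positions are chr1:119711684-119711933 (plus strand) for PHGDH, chr9:78296875-78297124 (plus) for PSAT1, chr6:150866236-150866485 (plus) for MTHFD1L, chr17:18363551-18363800 (minus) for SHMT1 and chr14:64388103-64388352 (plus) for MTHFD1. Capitals mark matches, on either strand, to TGATGNAA (a composite element bound by ATF4 with C/EBP partners), CACGTG (the E-box bound by MYC with MAX) and CCAAT (the box bound by NF-Y).
PHGDH: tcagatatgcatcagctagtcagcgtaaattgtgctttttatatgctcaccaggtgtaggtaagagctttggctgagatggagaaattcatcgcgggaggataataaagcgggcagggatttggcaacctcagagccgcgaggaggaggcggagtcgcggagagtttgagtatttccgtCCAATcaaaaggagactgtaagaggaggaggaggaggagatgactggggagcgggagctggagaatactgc
PSAT1: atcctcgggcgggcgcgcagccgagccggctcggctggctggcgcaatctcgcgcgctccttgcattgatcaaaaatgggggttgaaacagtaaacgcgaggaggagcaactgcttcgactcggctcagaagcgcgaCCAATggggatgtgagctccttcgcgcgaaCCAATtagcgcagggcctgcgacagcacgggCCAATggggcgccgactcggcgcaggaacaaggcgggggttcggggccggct
MTHFD1L: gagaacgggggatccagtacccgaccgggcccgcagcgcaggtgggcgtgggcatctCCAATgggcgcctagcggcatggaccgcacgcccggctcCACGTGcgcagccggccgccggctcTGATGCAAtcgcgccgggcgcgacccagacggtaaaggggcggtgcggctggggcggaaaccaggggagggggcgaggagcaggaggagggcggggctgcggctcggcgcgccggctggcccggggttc
SHMT1: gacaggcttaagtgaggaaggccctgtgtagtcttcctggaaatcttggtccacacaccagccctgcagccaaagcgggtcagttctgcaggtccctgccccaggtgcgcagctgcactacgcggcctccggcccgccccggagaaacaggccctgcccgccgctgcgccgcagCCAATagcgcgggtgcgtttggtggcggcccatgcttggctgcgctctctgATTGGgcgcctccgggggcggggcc
MTHFD1: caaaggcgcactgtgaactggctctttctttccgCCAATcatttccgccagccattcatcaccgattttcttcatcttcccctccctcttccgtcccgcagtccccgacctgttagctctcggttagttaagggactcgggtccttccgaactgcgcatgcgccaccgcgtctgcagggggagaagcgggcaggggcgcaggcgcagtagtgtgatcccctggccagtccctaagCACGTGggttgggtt

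TGATGNAA was present in MTHFD1L, 129 bases before this start, in the form TGATGCAA. It was found in 3.14% of the 35116 promoter entries of the same length. Of the 4 MTHFD1L entries, 2 held it, at the same place in overlapping windows. The other 6 members with an entry did not hold these letters in this window, PHGDH and PSAT1 included. CACGTG was found in MTHFD1L and in MTHFD1, 15 bases before its start, and in 6.34% of all entries, so it stood before a gene that was higher and before a gene that was lower. CCAAT was found in all 5 promoters shown, 3 times in PSAT1 and 2 times in SHMT1. Of the entries not shown, that of MTHFD2 held it. The MTHFD2L entries and the MTHFD1L entry that begins at 151006758 did not. CCAAT was found in 32% of all entries, and 37% of all genes with an entry had it in any of theirs. No 2 of the marked matches overlapped. A match describes the letters only; binding was not measured.

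PHGDH, the dehydrogenase that commits 3-phosphoglycerate to serine (chromosome 1, 119648411 to 119744226 in GRCh38), read 60.05, 53.43 and 56.74 FPKM after GK921, against 15.85, 18.09 and 16.34 FPKM in DMSO. Every GK921 library was above every DMSO library, and the gap exceeded the spread within either group many times over. Its mean was 56.7 ± 3.31 FPKM after GK921 and 16.8 ± 1.18 FPKM in DMSO, a 3.39-fold rise (log2 change 1.70 ± 0.066 SE, limma adjusted p = 3.62e-08). The promoter window shown for this gene lies inside that interval, at a RefSeq start downstream of the first GENCODE one. The windows shown for MTHFD1 and MTHFD1L, from 64388103 and 150866236, likewise lie inside their genes' GENCODE intervals, which begin at 64388031 and 150865549. That of SHMT1, from 18363551, reaches into its gene's interval, which ends at 18363563.

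PSAT1, the transaminase of the second step (chromosome 9, 78297143 to 78330093), read 302.78, 305.09 and 298.38 FPKM after GK921, against 149.47, 149.9 and 142.03 FPKM in DMSO. The groups were apart, with libraries of a group within a few percent of each other. It rose 2.05-fold (log2 change 1.03 ± 0.032, limma adjusted p = 9.20e-09). PSPH, the phosphatase that releases serine (chromosome 7, 56011051 to 56051604), read 73.81, 81.11 and 77.56 FPKM after GK921, against 52.5, 55.73 and 56.36 FPKM in DMSO. It had the smallest rise of the 3, at 1.41-fold (log2 change 0.49 ± 0.049, limma adjusted p = 1.65e-05). Relative to the median gene its log2 change was 0.33. The order of the changes was that of the pathway, PHGDH before PSAT1 before PSPH. With only 3 genes such an order says little, and it was not tested. The order of the levels differed: PSAT1 was the most abundant of the 3 in both groups and PHGDH the least abundant. GENCODE names 4 pseudogenes of PSAT1 and 1 of PSPH, whose reads the authors' counting could share with the genes.

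**Figure D1:**
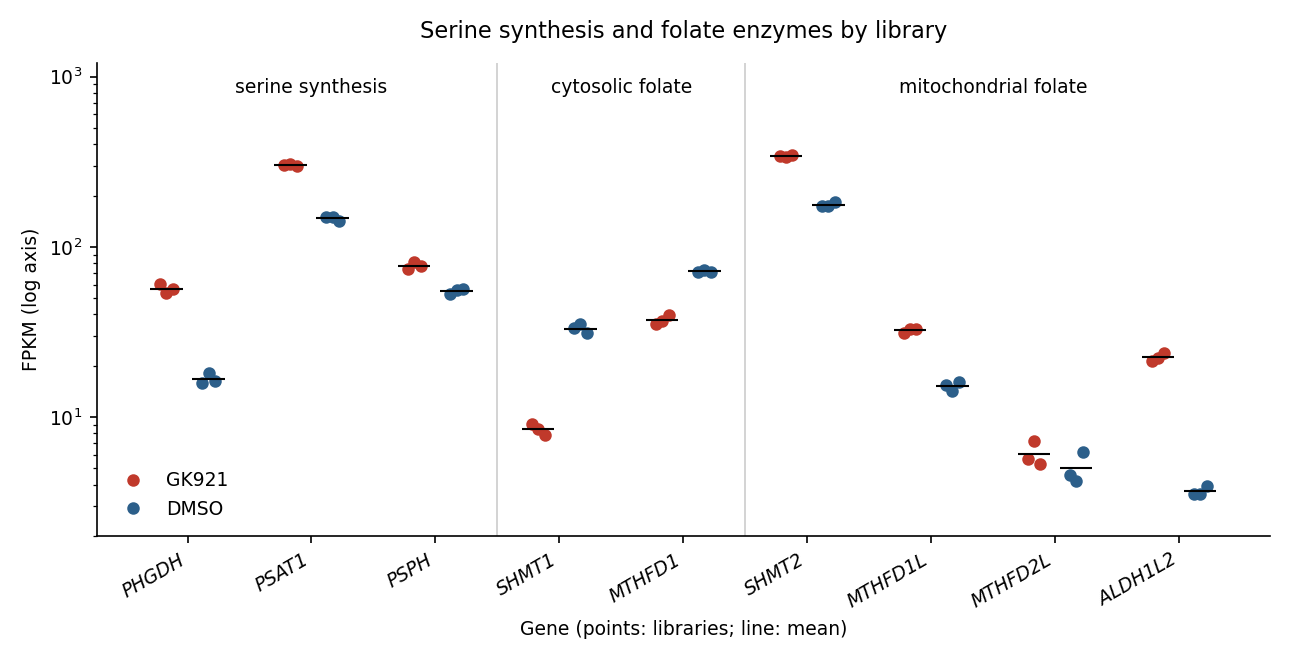
FPKM on a log axis for the 9 tested members in each library, GK921 (red) and DMSO (blue), with the mean as a line; MTHFD2, listed at 0 to 0.16 FPKM, is left out. The GK921 points lie above the DMSO points for the 3 serine genes, SHMT2, MTHFD1L and ALDH1L2, below them for SHMT1 and MTHFD1, and among them for MTHFD2L.

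In the cytosol, SHMT1, which makes glycine and methylene-tetrahydrofolate from serine (chromosome 17, 18327860 to 18363563), read 9.13, 8.52 and 7.85 FPKM after GK921, against 33.09, 34.92 and 31.02 FPKM in DMSO. The highest GK921 library was far below the lowest DMSO library. Its mean was 8.5 ± 0.640 FPKM after GK921 and 33.0 ± 1.95 FPKM in DMSO, so it was 3.88-fold lower (log2 change -1.84 ± 0.074, limma adjusted p = 4.45e-08). Of all tested genes, 1.94% had a lower log2 change. GENCODE names 1 pseudogene of SHMT1, and exons of 2 other genes cover 3.69% of its exonic bases. Their part in the values was not tested.

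MTHFD1, the cytosolic enzyme that joins 3 activities and interconverts formate and the other folate-bound carbons (chromosome 14, 64388031 to 64463457), read 34.98, 36.51 and 39.71 FPKM after GK921, against 71.12, 72.68 and 70.95 FPKM in DMSO. The groups did not overlap. It was 1.93-fold lower (log2 change -0.93 ± 0.052, limma adjusted p = 3.77e-07). Exons of 3 genes on the opposite strand cover 11% of its exonic bases. The labels do not state a strand setting for the counting, so reads there cannot be assigned to 1 gene with certainty. GENCODE also names 1 pseudogene of MTHFD1, whose reads the authors' counting could share with the gene.

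In mitochondria, SHMT2, the counterpart of SHMT1 (chromosome 12, 57229327 to 57234935), read 342.83, 338.57 and 344.96 FPKM after GK921, against 173.57, 172.77 and 183.13 FPKM in DMSO. It was the most abundant member in both groups and rose 1.94-fold (log2 change 0.95 ± 0.031, limma adjusted p = 1.39e-08). Exons on the opposite strand cover 9.51% of its exonic bases. MTHFD1L, which releases formate from 10-formyl-tetrahydrofolate at the end of the mitochondrial route (chromosome 6, 150865549 to 151101887), read 31.19, 32.74 and 32.73 FPKM after GK921, against 15.3, 14.11 and 16.13 FPKM in DMSO. It rose 2.12-fold (log2 change 1.04 ± 0.063, limma adjusted p = 6.30e-07), close to the ratio of SHMT2.

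ALDH1L2, which oxidises 10-formyl-tetrahydrofolate to carbon dioxide and yields NADPH (chromosome 12, 105019784 to 105084577), had the largest change of the members. It read 21.3, 22.28 and 23.58 FPKM after GK921, against 3.53, 3.54 and 3.92 FPKM in DMSO. Its mean was 22.4 ± 1.14 FPKM after GK921 and 3.66 ± 0.222 FPKM in DMSO, a 6.11-fold rise (log2 change 2.33 ± 0.077, limma adjusted p = 1.44e-08). Of all tested genes, 99.1% had a lower log2 change. The cytosolic counterpart, ALDH1L1, was listed at 0 in all 6 libraries.

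MTHFD2L, a mitochondrial dehydrogenase and cyclohydrolase (chromosome 4, 74114174 to 74303099), read 5.69, 7.21 and 5.31 FPKM after GK921, against 4.58, 4.19 and 6.22 FPKM in DMSO. The ranges overlapped. Its log2 change was 0.24, with a 95% interval of -0.098 to 0.58 (limma adjusted p = 0.168), so neither no change nor a rise of the size of PSPH lies outside the interval. Single libraries moved this value in both directions. Without the third DMSO library, the highest of its group, the log2 change was 0.38 and was called (limma adjusted p = 0.0346). Without the second GK921 library, the highest of its group, it was 0.13 (limma adjusted p = 0.466), and without the second DMSO library, the lowest of its group, 0.15 (limma adjusted p = 0.434).

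MTHFD2, the close relative of MTHFD2L that many tumour cells express strongly (chromosome 2, 74198562 to 74217565), was listed at 0, 0.09 and 0.08 FPKM after GK921, against 0, 0.16 and 0 FPKM in DMSO. It fell below the limit of 1 FPKM and no change can be read from these values. Genes that every cell uses were listed in the same way. UQCR11 and NDUFA7 of the respiratory chain, the proteasome subunit PSMA2 and the mitochondrial ribosomal proteins MRPL30 and MRPS17, named after their values were seen, lay between 0 and 0.39 FPKM in every library. A listing near 0 is therefore not read here as absence of the transcript. GENCODE places exons of SLC4A5 and of AC006030.1, both on the opposite strand, over 33.2% of the exonic bases of MTHFD2 and names 7 pseudogenes of it. Their part in the listing was not tested.

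**Figure D2:**
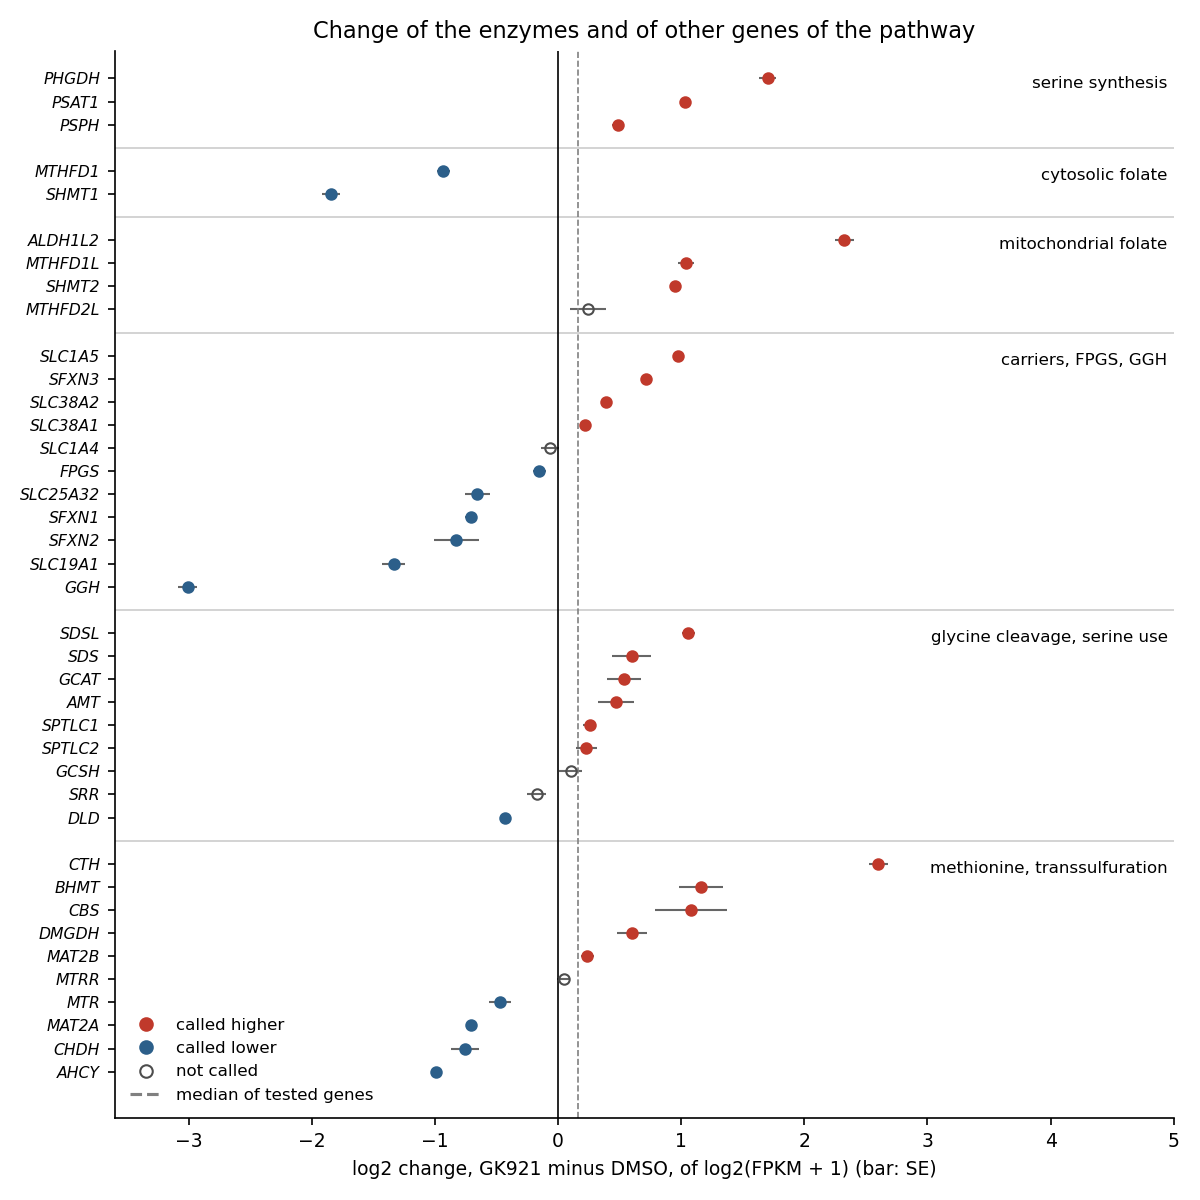
Log2 change of log2(FPKM + 1), GK921 minus DMSO, with its SE, for the 9 tested members and for the 30 tested genes of 3 other lists of the pathway (carriers, glycine cleavage, methionine); red is called higher, blue called lower, open not called, and the dashed line is the median of all tested genes at 0.16. SHMT1 and MTHFD1 lie on the lower side, at -1.84 and -0.93, and every other member lies on the higher side, up to 2.33 for ALDH1L2.

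In the 2 pairs that could be compared, SHMT2 with SHMT1 and MTHFD1L with MTHFD1, the mitochondrial and cytosolic genes thus had opposite changes. MTHFD1 joins 3 activities, so its RNA does not stand for the step of MTHFD1L alone. MTHFD2L was not called and MTHFD2 could not be read. SHMT2 made up 97.4, 97.5 and 97.8% of the summed FPKM of SHMT1 and SHMT2 after GK921, against 84, 83.2 and 85.5% in DMSO. The ratio of SHMT2 to SHMT1 averaged 40.4 ± 3.25 after GK921 and 5.37 ± 0.489 in DMSO, and the log2 ratio differed by 2.91. MTHFD1L made up 47.1, 47.3 and 45.2% of the summed FPKM of MTHFD1 and MTHFD1L after GK921, against 17.7, 16.3 and 18.5% in DMSO. The ratio of MTHFD1L to MTHFD1 averaged 0.871 ± 0.0405 after GK921 and 0.212 ± 0.0168 in DMSO, and the log2 ratio differed by 2.04. Both ratios were higher in every GK921 library than in any DMSO library. A two-sided exact permutation test over libraries gave p = 0.1 for either ratio, also after Benjamini-Hochberg adjustment over both, and 0.1 is the smallest that 3 against 3 libraries allow. These ratios are taken within a library, so a scaling that multiplies all values of a library by the same factor leaves them unchanged. Quantile normalization is not of this kind, and the ratios were not computed under it. The ratios of MTHFD2 to MTHFD2L, of MTHFD2 to MTHFD1 and of ALDH1L2 to ALDH1L1 were not computed, since a gene in each was listed at 0.

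**Figure D3:**
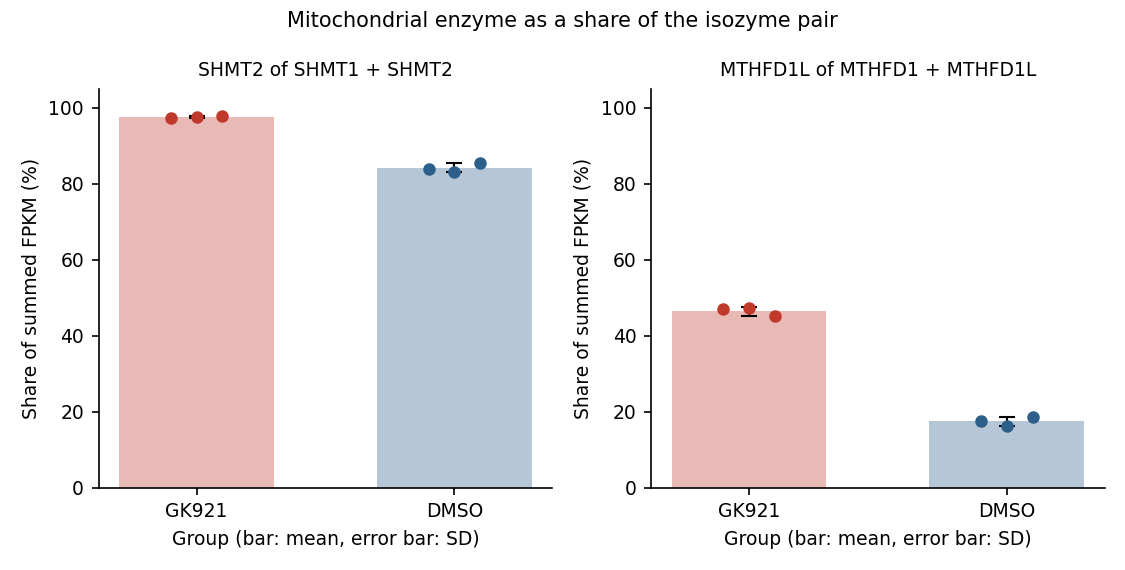
Share of the mitochondrial enzyme in the summed FPKM of each isozyme pair, in percent, by library (points), with the group mean (bar) and SD (error bar), GK921 left and DMSO right. SHMT2 averages 97.6% after GK921 and 84.2% in DMSO, and MTHFD1L 46.5% and 17.5%.

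Summed over a role, the serine synthesis genes reached 433 to 440 FPKM in GK921 libraries, against 215 to 224 FPKM in DMSO libraries. The mitochondrial folate genes reached 401 to 407 FPKM after GK921, against 195 to 209 FPKM in DMSO, and most of both sums is SHMT2. The cytosolic folate genes fell to 44.1 to 47.6 FPKM after GK921, against 102 to 108 FPKM in DMSO. The order of the levels changed accordingly. After GK921 the means ran SHMT2, PSAT1, PSPH, PHGDH, MTHFD1, MTHFD1L, ALDH1L2, SHMT1, MTHFD2L and MTHFD2. In DMSO they ran SHMT2, PSAT1, MTHFD1, PSPH, SHMT1, PHGDH, MTHFD1L, MTHFD2L, ALDH1L2 and MTHFD2. ALDH1L2 stood at place 7 after GK921 and place 9 in DMSO, and SHMT1 at place 8 and place 5. Among neighbours in these orders, PHGDH and MTHFD1L overlapped in DMSO, at 15.85 to 18.09 and 14.11 to 16.13 FPKM. The other neighbours did not overlap in either group.

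Changes relative to other genes depend on the scale, since the median log2 change of all tested genes was 0.16 as deposited. Under 4 rescalings of the libraries every called member kept its direction and its call. PSPH, the smallest, ranged down to a log2 change of 0.32 with median-ratio scaling (limma adjusted p = 0.000272). MTHFD2L ranged down to 0.016 with quantile normalization (limma adjusted p = 0.928) and was not called under any of the 4.

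**Figure D4:**
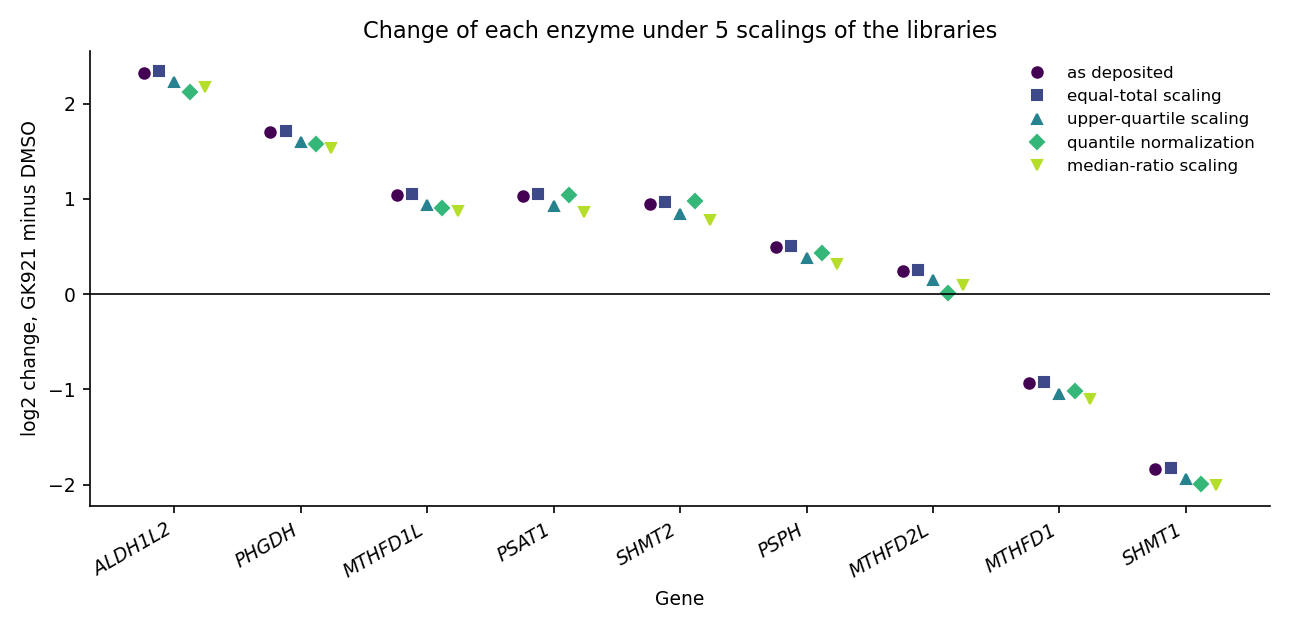
Log2 change, GK921 minus DMSO, of the 9 tested members on the deposited values and under 4 rescalings of the libraries. The 8 called members keep their side of 0 in all 5, and MTHFD2L lies closest to 0, between 0.016 and 0.26.

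The rest of the pathway was read from 4 lists with 47 genes, of which 38 could be tested: 18 were higher, 16 lower and 4 not called. Among all tested genes 46.8% were called higher and 29.2% lower. The share of rises in the lists was thus close to the background, and the share of falls, 16 of 38, was above it. The counts of each list below are to be read beside the shares of all tested genes. Median-ratio scaling gave 13 higher and 18 lower, against 4221 and 4374 of all 11573 tested genes. The balance of these lists thus depends on the scale, while their share of falls was above that of all tested genes on both scales. This excess of falls was not tested. Of 8 other folate cycle enzymes 3 rose and 5 fell (median log2 change -0.22). TYMS, which uses methylene-tetrahydrofolate to make thymidylate, averaged 30.2 ± 0.609 FPKM after GK921 and 163 ± 2.22 FPKM in DMSO (5.41-fold lower, limma adjusted p = 2.33e-10).

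Of 11 tested carriers and folate-retaining enzymes, 4 rose and 6 fell, with a median of -0.15. GGH, the lysosomal hydrolase that trims folate polyglutamates, averaged 11.1 ± 1.28 FPKM after GK921 and 95.6 ± 2.88 FPKM in DMSO (8.65-fold lower, limma adjusted p = 3.37e-09). SLC19A1, the reduced folate carrier, was 2.89-fold lower and SFXN2, of the sideroflexin family of mitochondrial carriers, 2.15-fold lower. SLC1A5, a neutral amino acid transporter, rose 1.98-fold.

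Of 9 genes of glycine cleavage and of serine or glycine use, 6 rose and 1 fell, with a median of 0.26. The counts were 4 and 2 with median-ratio scaling, and 3 and 2 with quantile normalization. SDSL, related to serine dehydratase, rose 2.13-fold. GCAT rose 1.53-fold, a call lost in the test against a 1.2-fold change (limma adjusted p = 0.0754). SDS read 1.46 ± 0.185 FPKM after GK921 and 0.630 ± 0.226 FPKM in DMSO, a call lost with quantile normalization (limma adjusted p = 0.059) and in the test against a 1.2-fold change (limma adjusted p = 0.0647). DLD, the lipoamide dehydrogenase shared with other complexes, was 1.35-fold lower. GLDC, the decarboxylase of glycine cleavage, named after its values were seen, was at most 0.16 FPKM in every library.

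Of 10 genes of the methionine cycle and transsulfuration, 5 rose and 4 fell, with a median of 0.14. CTH, which makes cysteine from cystathionine, averaged 91.7 ± 4.86 FPKM after GK921 and 14.3 ± 1.56 FPKM in DMSO (6.40-fold, limma adjusted p = 7.95e-09). CBS, which joins serine to homocysteine one step earlier, rose at a low level, to 2.37 ± 1.23 FPKM after GK921, against 0.570 ± 0.471 FPKM in DMSO (limma adjusted p = 0.00826). BHMT, a betaine-dependent homocysteine methyltransferase, was at 1.92 ± 0.238 FPKM after GK921 and 0.320 ± 0.262 FPKM in DMSO (limma adjusted p = 0.000302). AHCY, which clears S-adenosylhomocysteine, was 1.99-fold lower.

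All 7 listed transcription factors were called higher after GK921, against 46.8% of all tested genes. The list was chosen with earlier results of these data known, so the count alone says little. The sizes differed widely. The log2 change was 4.12 for ATF3 and 0.39 for MYC, and 64.6% of tested genes had a lower log2 change than MYC. ATF4 averaged 379 ± 13.1 FPKM after GK921 and 199 ± 7.06 FPKM in DMSO (1.90-fold), CEBPG rose 2.61-fold, CEBPB 2.46-fold, NFE2L2 1.83-fold, DDIT3 7.26-fold, ATF3 17.8-fold and MYC 1.31-fold. Of 13 tested amino acid stress genes outside the pathway, 9 rose and 3 fell (median log2 change 0.62). Among all tested genes 46.8% were called higher and 29.2% lower. ASNS, the asparagine synthetase, rose 4.96-fold, CHAC1 10.2-fold and DDIT4 7.05-fold, and SLC7A11, the cystine transporter, was 1.53-fold lower. PYCR1, on the same list and also named after its values were seen, was listed at no more than 0.38 FPKM.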

How the data were processed

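RNA sequencing of 3 GK921 and 3 DMSO libraries was used, grouped by treatment label. Per the submitters' processing notes, hg38, HISAT2, featureCounts, edgeR and FastQC 0.11.5 are named, without roles; annotation and strand setting: not given in the sources used here. Per gene symbol and library, the authors deposited FPKM; the unit rests on the name given to the table. Absolute depth is unknown, so no counting intervals were set. Relative depth came from the most frequent ratio of low values in each of 15 pairs of libraries.

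Genes averaging 1 FPKM or more over the 6 libraries were tested with limma 3.58.1 (R 4.3.3) on log2(FPKM + 1), treatment only, intensity trend, Benjamini-Hochberg adjustment. The pseudocount of 1 understates changes of low genes. The fit was tested on simulated data in which few genes were changed. In the real data 75.9% of tested genes were called, so the simulation does not show how the fit behaves at that share. Isozyme ratios used exact permutation tests (scipy 1.17.1). Positions and exon overlaps came from GENCODE release 29 (GRCh38), promoters from RefSeq. Members, lists and tests were chosen with earlier results of these data known. Every member was named, with up to 4 called genes per other list by size of change and at least 1 of each direction, the listed transcription factors and TGM2; some genes of these lists are not reported here. Amino acid sequences were not used here.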

Additional observations from a re-analysis of the deposited data

How the results depend on the processing

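Under 18 alternatives (pseudocount, expression limit, 4 scalings, replicate block, a 1.2-fold minimum change, array weights, no trend and each library left out), the 8 called members kept their direction and call. Without each library in turn, 6 to 7 members were called higher, and 2 lower in every case. MTHFD2L was called without the third DMSO library (0.38). The test against a 1.2-fold change called 3595 genes higher and 2135 lower, since small changes no longer count. It left SDS (0.60, limma adjusted p = 0.0647), GCAT (0.53, limma adjusted p = 0.0754) and KDR (0.50, limma adjusted p = 0.0913) uncalled. TGM2 turned to -0.15 with median-ratio scaling (limma adjusted p = 0.00642), -0.093 with upper-quartile scaling and -0.085 with quantile normalization. Of 28 other named genes, 24 kept their call under every alternative that tested them. SFXN2, BHMT, CBS and DCN, among these, and SDS and KDR fall below the limit of 5 FPKM and were not tested there. The log2 isozyme ratios differed by 2.79 to 2.98 for SHMT2 over SHMT1 and 1.97 to 2.09 for MTHFD1L over MTHFD1 across pseudocounts and left-out libraries. Same-numbered libraries shared little deviation over genes (correlations of 0.031, 0.047 and -0.0021, against -0.057 to 0.029 for other pairs). Correlations this small cannot settle whether the numbers pair the libraries, since a small shared effect would not show. With the replicate block 5351 genes were called higher and 3355 lower, with 6 and 2 members. Unknown depth limits values near 0, such as those of MTHFD2.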
